A study of Mus musculus with 4 samples.

Results

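The genes of beta-catenin and its destruction complex were described here at the level of DNA dosage in 4 mouse liver tumours. They are Ctnnb1, Apc, Axin1, Axin2, Gsk3b, Csnk1a1, Tcf7l2, Lef1 and Glul, taken by the gene name printed beside each array probe. These 9 genes are among 13919 genes that had at least 2 placed probes, and they hold 62 of 169093 placed probes.

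Beta-catenin, the product of Ctnnb1, is the protein that carries a Wnt signal to the nucleus. Without the signal, the scaffolds Apc and Axin hold it beside the kinases casein kinase 1 alpha and Gsk3b, which phosphorylate it and so mark it for degradation. With the signal, this destruction complex is held off, and beta-catenin accumulates and acts with DNA-binding partners such as Tcf7l2 and Lef1. In liver the pathway is active in hepatocytes around the central vein, where the glutamine synthetase gene Glul is a known target, and liver tumours can carry activating mutations of Ctnnb1 or inactivating ones of Apc or Axin1. A point mutation leaves DNA dosage unchanged, so point mutations were not measured here.

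The assay was array comparative genomic hybridization. Differently dyed DNA of a tumour and of a reference bind the same short probes, and the dye ratio at a probe reads out relative copy number. The 4 tumours came from 4 untreated C57BL/6J mice, form a single group and are numbered 1 to 4 only as names. The series title gives a liver-specific loss of Trp53, and tumour and reference alike are labelled Trp53-/- and male, so the reference carries the same labelled genotype. No driver of the deletion and no age is given in the sources used here. The reference, in Cy3, was DNA pooled from 3 sex-matched littermates, labelled as spleen but named as liver in the labelling protocol, and the tumour DNA was in Cy5 on every array. Each tumour is a bulk sample, so a change in a fraction of its cells and a smaller change in all of them cannot be told apart. The p-values measure the spread between these 4 samples and leave out that of the reference.

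All values are log2 of tumour over reference, with 0 set at each array's autosomal median. A loss of 1 of 2 copies in every cell would give -1 and a gain of 1 copy 0.58. The arrays differed in noise. The SD between neighbouring probes was 0.12, 0.37, 0.15 and 0.15 for tumours 1 to 4, and the file header put the spread of tumour 2's array out of its accepted range. Tumours 1 and 2 lay on 1 slide and tumours 3 and 4 on another. Arrays 1 and 4 went against the labelled sex match. Chromosome X averaged -0.82 and Y 2.22 in tumour 1, against 0.84 for X and -2.35 for Y in tumour 4. Over all placed probes these arrays correlated at r = -0.61, but over the autosomal probes at r = 0.18. The labels state the dyes, so the direction was kept, and all 9 genes are autosomal. In that direction, chromosomes 9, 12 and 15, the autosomes farthest from 0 on average (-0.12, -0.12 and 0.22), had the same sign on all 4 arrays. They were picked by means taken in that direction, which favours a shared sign, so this does not test the direction. Tumour 2 averaged only -0.003 on chromosome 9 and -0.03 on chromosome 12.

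The probe sequences that the results below turn on are those of the lowest Ctnnb1 probes, both Glul probes and 3 neighbouring Tcf7l2 probes. They are given as the deposited files list them, with positions on the mouse build mm9. Capitals mark the arms of the longest perfect inverted repeat within each probe, a stretch that can pair with itself, counted with a loop of at least 3 bases. An exon, intron or UTR is not assigned here, since no mm9 gene annotation was used.
Ctnnb1 probe 1, chr9:120848314-120848373: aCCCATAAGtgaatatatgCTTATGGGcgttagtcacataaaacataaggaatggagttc
Ctnnb1 probe 2, chr9:120853880-120853939: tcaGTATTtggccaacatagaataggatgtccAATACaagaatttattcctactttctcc
Glul probe 1, chr1:155749811-155749870: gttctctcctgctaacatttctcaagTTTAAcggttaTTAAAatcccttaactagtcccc
Glul probe 2, chr1:155752713-155752770: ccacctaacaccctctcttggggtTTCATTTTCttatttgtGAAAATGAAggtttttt
Tcf7l2 probe 6, chr19:55910536-55910595: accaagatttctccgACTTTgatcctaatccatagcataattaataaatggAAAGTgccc
Tcf7l2 probe 7, chr19:55916334-55916393: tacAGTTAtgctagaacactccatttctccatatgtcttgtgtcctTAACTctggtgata
Tcf7l2 probe 8, chr19:55926666-55926725: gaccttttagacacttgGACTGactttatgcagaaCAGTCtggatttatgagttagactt

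Ctnnb1 had the lowest value of the 9 genes. Its 3 probes, over chr9:120848314-120869389, averaged -0.31, -0.39, -0.10 and -0.32 in tumours 1 to 4. All 4 tumours lay below 0, with tumour 3 nearest to it, for a mean of -0.28 ± 0.13 (SD, n = 4), a ratio of 0.825. With the sign of array 1 or array 4 turned, since their X and Y go against the labels, the mean was -0.12 in each case, with 1 tumour above 0. It was not past the threshold of 0.05 in the limma fit over all genes (Benjamini-Hochberg adjusted p = 0.136, unadjusted p = 0.0036). Of all genes, 9.28% lay below 0 at an unadjusted p under 0.05, and 16.1% lay below 0 in 4 of 4 tumours. With normexp background correction, an alternative way to correct the raw signals, the value was -0.37 and past the threshold (limma, adjusted p = 0.0488), a setting in which 1.52% of all genes were called lower. On chromosome 9, 40 of 796 genes were lower than Ctnnb1.

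Part of this low value was shared with the chromosome. The rest of chromosome 9 averaged -0.17, -0.003, -0.12 and -0.20 in tumours 1 to 4, so tumour 2 alone stood near 0 there. The flanks of Ctnnb1, the 152 other probes within 1 Mb of it, averaged -0.18, 0.11, -0.11 and -0.24. Against those flanks Ctnnb1 stood at -0.13, -0.50, 0.01 and -0.08. Tumour 2, the noisiest array, lay farthest below its flanks, and tumour 3 did not lie below them. The mean was -0.17 ± 0.22 (SD, n = 4; 95% interval -0.38 to 0.03; limma, adjusted p = 0.372), and it was -0.07 without tumour 2. Of the 2764 genes with 3 probes, 149 were lower against their flanks.

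**Figure D1:**
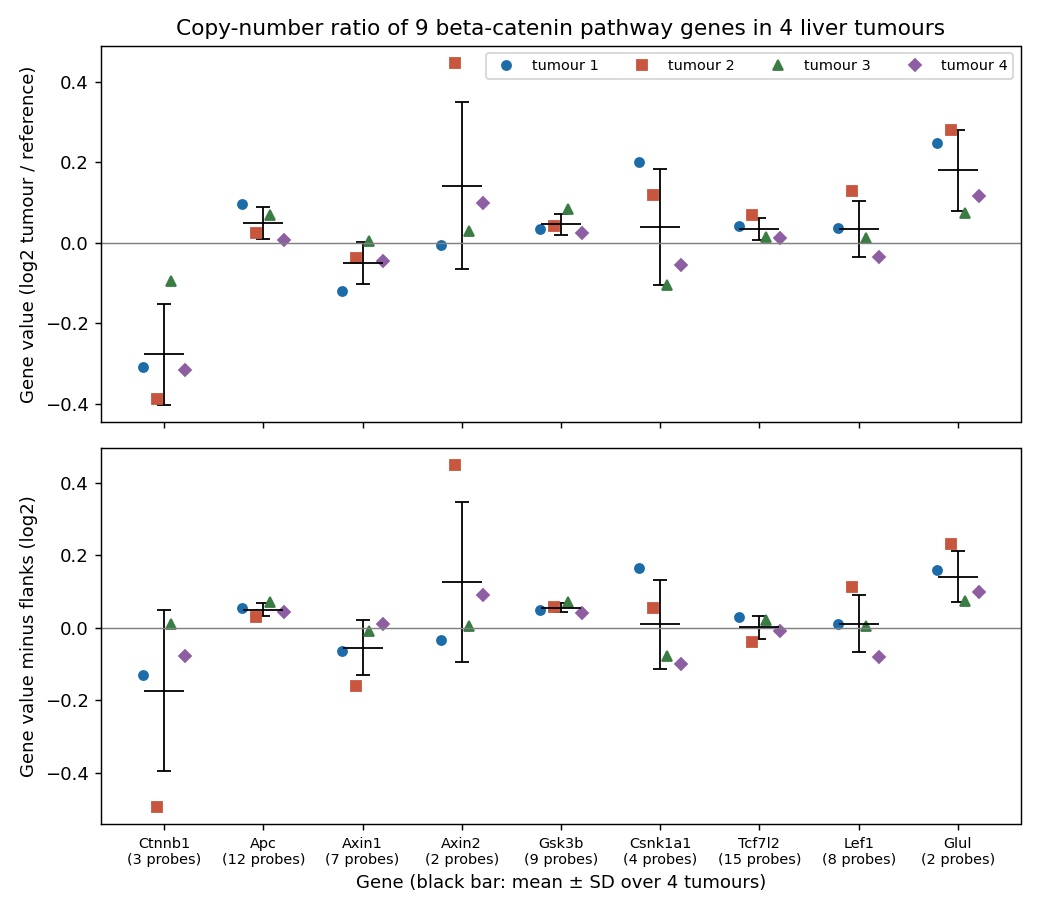
Gene values (upper panel) and gene values minus the flanks within 1 Mb (lower panel), both in log2, for each of the 9 genes. Coloured points are tumours 1 to 4 and black bars the mean ± SD. Ctnnb1 has the lowest mean in both panels (-0.28 and -0.17), and Glul the highest (0.18 and 0.14). Axin2 is higher than Glul with normexp background correction, with the sign of array 1 turned or without tumour 1.

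The rule for Ctnnb1 also asked whether it lay below the chromosome 9 level by single probes or as a stretch. The gene as a whole stood at -0.13, -0.39, 0.02 and -0.12 against the rest of the chromosome in tumours 1 to 4. The mean was -0.15 ± 0.17 (SD, n = 4; exact two-sided sign-flip test, p = 0.25), a test that cannot reach 0.05 with 4 tumours, and -0.08 without tumour 2. With the sign of array 1 or array 4 turned it was -0.09. Its probes differed among themselves more than those of most genes. The SD over the 3 probe means was 0.29, and 96.5% of genes had a smaller one. That share is over genes with any number of probes, and an SD over 3 probes varies more than an SD over many.

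The first Ctnnb1 probe carried most of the low value. Its log2 ratio was -0.46, -0.998, -0.43 and -0.43 in tumours 1 to 4, so 3 tumours lay close together and tumour 2 apart from them. Against the rest of chromosome 9 it stood at -0.46 ± 0.36 (SD, n = 4), below in 4 of 4 tumours. Of 8372 chromosome 9 probes, 43 averaged as low, which is 0.514%, and 13.1% lay below the chromosome level in 4 of 4 tumours. This probe was singled out as the lowest of the gene, so the share of 0.514% does not measure how rare such a find is. Against its flanks it was at -0.47 (limma over all probes, adjusted p = 0.311, unadjusted p = 0.0089), and at -0.27 without tumour 2.

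The second probe, 5.51 kb further on, read -0.32, -0.37, 0.02 and -0.36. It stood at -0.13 ± 0.21 (SD, n = 4) against chromosome 9, below it in 3 tumours and above it in tumour 3. Of 8372 chromosome 9 probes, 18.3% averaged as low as this second probe. The third probe read -0.14, 0.20, 0.12 and -0.15, which is 0.13 ± 0.11 (SD, n = 4) above chromosome 9, and above it in 4 of 4 tumours. The outer probes of the gene, which span 21.1 kb, thus lay on opposite sides of the chromosome level in every tumour. Leaving out the lowest probe, which must raise the mean, put Ctnnb1 at -0.002 against the rest of the chromosome. Without the second probe it stood at -0.16 and without the third at -0.30, below the chromosome in 4 of 4 tumours both times.

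The probes around the gene did not share the low value when both sides were averaged, and the sides differed. The 10 nearest probes on each side stood at -0.02, 0.17, 0.09 and -0.05 against the rest of chromosome 9 in tumours 1 to 4. Their mean was 0.05 ± 0.10 (SD, n = 4; exact two-sided sign-flip test, p = 0.5), above the chromosome in 2 tumours and below it in the others. The 5 nearest on each side averaged 0.06 ± 0.11 and the 25 nearest 0.02 ± 0.10 (SD, n = 4). The probe next before the first Ctnnb1 probe lay 43.5 kb away and stood at -0.04, -0.11, 0.20 and -0.02 against the chromosome, below it in 3 of 4 tumours. The 25 probes before the gene averaged -0.06 ± 0.08, below the chromosome in 3 of 4 tumours, and the 25 after it 0.10 ± 0.13 (SD, n = 4), below it in 1. The first probe, at -0.46, and the second, at -0.13, thus lay farther below the chromosome than the averages of the 25 probes on either side. An average of 25 probes varies less than a single probe, so this does not set them apart from single neighbours. Among the single probes around the gene, those of BC100520 (-0.54) and a Trak1 probe (-0.56) stood lower than the first Ctnnb1 probe, and most stood above it.

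**Figure D2:**
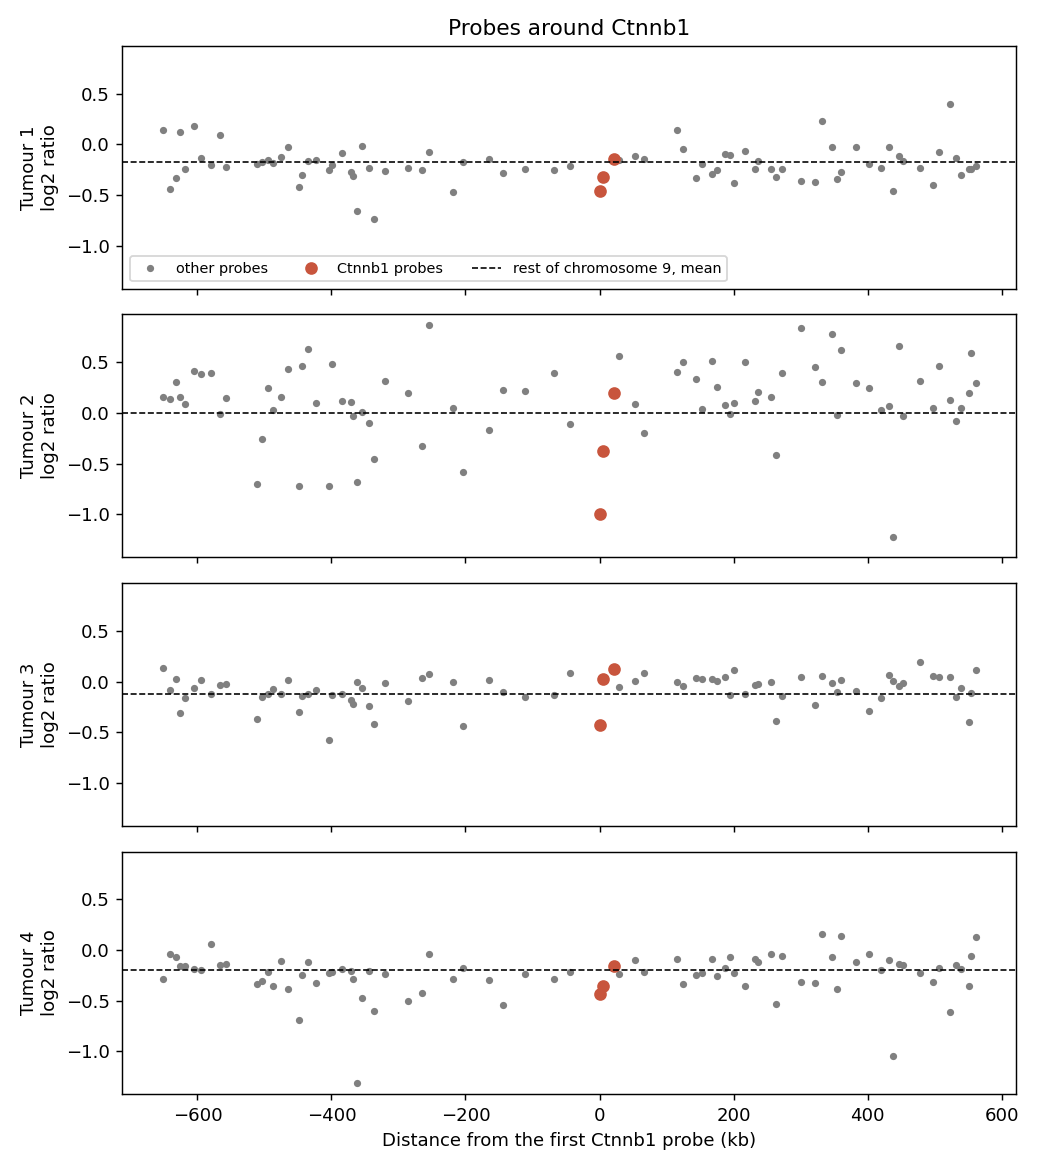
Log2 ratio of single probes against their distance in kb from the first Ctnnb1 probe, with a panel for each tumour. Red points are the 3 Ctnnb1 probes, grey points the other probes and the dashed line the mean of the rest of chromosome 9; the first Ctnnb1 probe lies below the line in all 4 panels and the third above it in all 4.

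The nearest named genes differed by side. AK043477, whose 8 probes start 8.19 kb after Ctnnb1, averaged -0.01 ± 0.21 and stood above chromosome 9 in 4 of 4 tumours, by 0.11 ± 0.13 (SD, n = 4). BC065094, with 13 probes, averaged -0.05 ± 0.20 and AK029123, with 4 probes, -0.02 ± 0.22. On the other side each of the 3 nearest named genes had a single probe. AK135884 averaged -0.18 ± 0.33, Rpl14 -0.21 ± 0.13, below chromosome 9 in 4 of 4 tumours, and BC100520 -0.67 ± 0.53 (SD, n = 4). BC100520 read -0.66, -0.68, -0.01 and -1.31 in tumours 1 to 4, a lower mean than the first Ctnnb1 probe, at 361 kb from it.

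**Figure D3:**
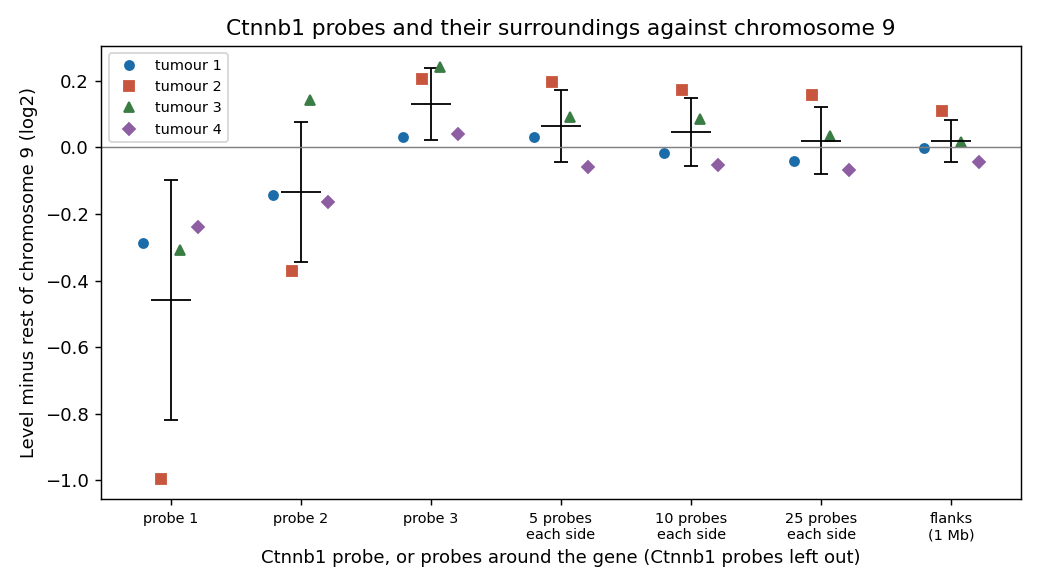
Level minus the rest of chromosome 9, in log2, for each Ctnnb1 probe and for the probes around the gene, with the Ctnnb1 probes left out. Coloured points are tumours and black bars the mean ± SD (n = 4); the mean is -0.46 at probe 1, 0.13 at probe 3 and 0.02 for the flanks within 1 Mb.

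No break was placed at Ctnnb1 when each array was divided into segments of constant level. Each break carried a penalty, too large for a dip of the size and length seen at Ctnnb1 to be cut out. The lack of a break there therefore says nothing about a dip this short. The segment holding the gene ran to the last probe of chromosome 9 in every tumour, over 12.8, 20.8, 66.3 and 20.1 Mb in tumours 1 to 4. Its mean was -0.18, 0.06, -0.12 and -0.21. A segment was called lost at -0.2 or below, so the gene lay in a called segment in tumour 4 only, where 5.71% of autosomal genes lay in a lost segment. That call ended with the intensity trend removed, where the segment mean was -0.19, and with normexp background correction tumour 1 was called too, at -0.23. In tumours 1 to 3 the share of genes in lost segments was 0.232%, 0.351% and 0.0299%. In tumours 1 to 4, 4.04%, 4.53%, 0.0747% and 2.43% lay in a segment called gained, at 0.2 or above. Of the 36 pairs of a gene and a tumour, Ctnnb1 in tumour 4 was the only call in the main setting, and in all 36 every probe of the gene fell in the same segment.

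Signal strength and sequence were set beside the low probe. In the tumour channel the first Ctnnb1 probe read -1.32, -1.40, -1.04 and -1.46 relative to the autosomal median, at the 3.77th percentile of autosomal probes by its mean. In the reference channel it read -0.86, -0.42, -0.62 and -1.03, at the 11.4th percentile. Both levels are low, but the probe was well above background and unflagged on all 4 arrays. With the trend of the ratio on intensity removed, it stood at -0.34 against its flanks and the whole gene at -0.11. Its inverted repeat has arms of 8 bases, CCCATAAG and CTTATGGG. Of autosomal probes with flanks, 0.96% have arms of 8 bases or more. Those 1526 probes averaged -0.0007, -0.14, 0.02 and -0.01 against their flanks in tumours 1 to 4, below 0 mainly in tumour 2, and 1.31% were as low as the first Ctnnb1 probe, against 0.457% of probes with arms of up to 4 bases. The part of signal strength and of the repeat in the low reading was not tested. The repeat was looked at after the values were seen.

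Of the scaffolds of the destruction complex, Apc and Axin1 averaged 0.05 and -0.05 over the tumours and Axin2 0.14. Apc, the large scaffold protein lost in many intestinal tumours, had 12 probes over chr18:34388003-34480256. Tumours 1 to 4 read 0.10, 0.02, 0.07 and 0.01 here, a mean of 0.05 ± 0.04 (SD, n = 4), with no tumour below 0. Against its 151 flanking probes it was higher in 4 of 4 tumours, by 0.06, 0.03, 0.07 and 0.04. The mean difference was 0.05 ± 0.02 (SD, n = 4; limma, adjusted p = 0.433), and 14.9% of all genes lay above their flanks in 4 of 4 tumours. Apc did not keep this difference with normexp background correction, where the mean was 0.0025. Its probe means ran from -0.16 to 0.26 against the flanks, and 3 of the 12 probes lay above them in every tumour.

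Axin1, the scaffold that limits assembly of the complex, had 7 probes over chr17:26279524-26328316. It read -0.12, -0.04, 0.005 and -0.04, lowest in tumour 1. Against its flanks it stood at -0.06, -0.16, -0.01 and 0.01, with a mean of -0.06 ± 0.08 (SD, n = 4; limma, adjusted p = 0.482). The sixth probe was the lowest, at -0.35 against its flanks and below them in every tumour. The flanks themselves stood at 0.12 in tumour 2, inside a segment of 13.3 Mb with a mean of 0.11.

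Axin2, a close relative of Axin1 and itself a Wnt target that feeds back on the pathway, had 2 probes that lie within 0.246 kb of each other, at chr11:108810796-108811041. It read -0.006, 0.45, 0.03 and 0.10, so tumour 2 lay apart from the others. Against its flanks the mean was 0.13 ± 0.22 (SD, n = 4; limma, adjusted p = 0.453), and it was 0.02 without tumour 2. The value in tumour 2 came from the first probe, which read 0.92 there, while the second, next to it, read -0.03. Relative to the autosomal median, the reference channel of the first probe was -0.43 on that array, against 0.49 to 0.91 on the others. Its tumour channel was 0.51, against 0.44 to 0.97.

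The kinases of the complex differed in how alike the tumours were. Gsk3b, which phosphorylates beta-catenin at the sites that lead to its degradation, had 9 probes over chr16:38094828-38244818. It read 0.04, 0.04, 0.08 and 0.02, a narrow range above 0. Against its 180 flanking probes it stood at 0.05, 0.06, 0.07 and 0.04, higher in 4 of 4 tumours, with a mean of 0.06 ± 0.01 (SD, n = 4; limma, adjusted p = 0.396). Its last 4 probes, over 77.1 kb, were each above the flanks in every tumour and averaged 0.14 ± 0.03 (SD, n = 4). Of all runs of 4 neighbouring autosomal probes, 0.101% lay above their flanks in this way. The Gsk3b run was picked out after the values were seen, from all short runs within the 9 genes. That share is for a single run and does not measure how rare such a find is. The third probe went the other way, at -0.20 and below the flanks in every tumour.

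Csnk1a1, casein kinase 1 alpha, which phosphorylates beta-catenin first and so primes it for Gsk3b, had 4 probes over chr18:61715726-61740328. It read 0.20, 0.12, -0.11 and -0.05, above 0 in tumours 1 and 2 and below it in tumours 3 and 4, which is also the split between the slides. Against its flanks it stood at 0.16, 0.05, -0.08 and -0.10, with a mean of 0.01 ± 0.12 (SD, n = 4; limma, adjusted p = 0.922). Whether slide or tumour gave that split was not tested. Apc and Csnk1a1 lie on the same chromosome and shared a segment in tumours 1 and 2.

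The nuclear partners were level with their surroundings as whole genes. Tcf7l2, the main TCF factor of the intestine and also expressed in liver, had 15 probes over chr19:55822379-55999117, more than any other of the 9 genes. It read 0.04, 0.07, 0.01 and 0.01, and its mean against the flanks was 0.0009 ± 0.03 (SD, n = 4; limma, adjusted p = 0.989; 95% interval -0.08 to 0.08). Within the gene, the sixth, seventh and eighth probes each lay below their flanks in 4 of 4 tumours. Together, over 16.2 kb, they averaged -0.13, -0.60, -0.22 and -0.25 in tumours 1 to 4, lowest in tumour 2, for a mean of -0.30 ± 0.21 (SD, n = 4). The probes on either side of the run averaged 0.20 and -0.02. Of all runs of 3 neighbouring autosomal probes, 0.22% lay below their flanks in this way.

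These 3 Tcf7l2 probes were not past the threshold one by one (limma over all probes, adjusted p = 0.311 for each). They lay at the 10.1th, 10.8th and 20.2th percentile of autosomal probes in the tumour channel, and at the 16.6th, 17.0th and 25.3th in the reference channel. Their inverted repeats have arms of 5 bases each, the length found in 43.2% of autosomal probes. The run was picked out after the values were seen, and the part of signal strength in it was not tested. No segment break was placed in Tcf7l2, whose segments had means between -0.01 and 0.02. The penalty on breaks was too large for a run this short and shallow to be cut out.

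Lef1, the other DNA-binding partner, had 8 probes over chr3:130818177-130919630. It read 0.04, 0.13, 0.01 and -0.04, with tumour 2 highest and tumour 4 below 0. Against its flanks it stood at 0.01 ± 0.08 (SD, n = 4; limma, adjusted p = 0.887). Its first and second probes lay on opposite sides of their flanks in every tumour, at 0.36 and -0.30. They are 20.5 kb apart, and the second had a low signal, at the 3.29th percentile of the tumour channel and the 4.36th of the reference channel.

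**Figure D4:**
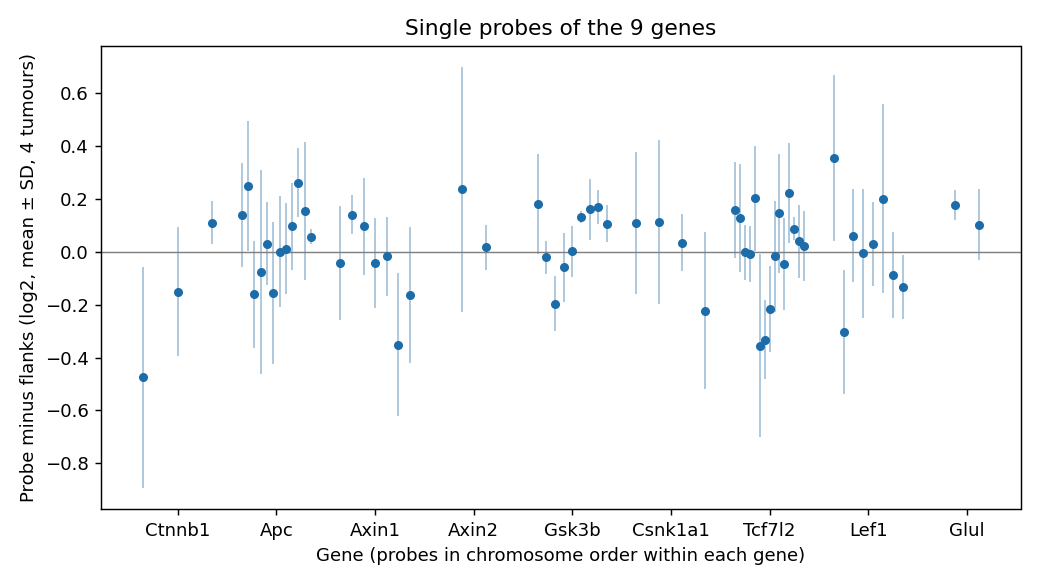
Mean ± SD over the 4 tumours of each of the 62 probes minus its flanks, in log2, in chromosome order within each gene. The lowest point is the first Ctnnb1 probe (-0.47) and the highest the first Lef1 probe (0.36); 3 neighbouring Tcf7l2 probes average -0.30.

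Glul, glutamine synthetase, had the highest mean of the 9 genes, ahead of Axin2 (0.18 and 0.14). This order did not hold in every setting. Axin2 was higher with normexp background correction (0.24 for Glul and 0.25 for Axin2), with the sign of array 1 turned (0.06 and 0.15) and without tumour 1. The 2 Glul probes, over chr1:155749811-155752770, averaged 0.25, 0.28, 0.08 and 0.12 in tumours 1 to 4, above 0 in every tumour and higher in tumours 1 and 2. The mean was 0.18 ± 0.10 (SD, n = 4; limma, adjusted p = 0.196, unadjusted p = 0.0126), a ratio of 1.13. Of all genes, 13.8% lay above 0 in 4 of 4 tumours and 6.67% above it at an unadjusted p under 0.05. Its flanks, 133 probes, read 0.09, 0.05, 0.002 and 0.02, so Glul lay above them in 4 of 4 tumours, by 0.16, 0.23, 0.07 and 0.10. The mean difference was 0.14 ± 0.07 (SD, n = 4; 95% interval 0.05 to 0.23). With the sign of array 1 or array 4 turned the mean difference was 0.06 or 0.09. The interval is for Glul alone, and the adjusted p of the limma fit over all genes was 0.355 (unadjusted p = 0.0107), where 6.87% of genes stood above their flanks at an unadjusted p under 0.05.

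The Glul probes read alike, unlike those of Ctnnb1. The first averaged 0.18 above its flanks and the second 0.10, and the SD of 0.05 between them was larger than that of 10.7% of genes. The second probe read -0.06 in tumour 3 and lay below its flanks there. Its inverted repeat has arms of 9 bases, TTCATTTTC and GAAAATGAA, longer than that of the first Ctnnb1 probe, yet its mean was above its flanks. No segment break was placed near Glul, whose segments spanned 77.2 to 170.4 Mb with means between -0.02 and 0.08. With the penalty on breaks, the Glul probes alone could not be cut out at these values.

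Set side by side, none of the 9 genes was past an adjusted p of 0.05, either against 0 or against its flanks. Neither was any of the 13919 genes in the first fit, where 928 lay above and 1291 below 0 at an unadjusted p under 0.05, nor any of the 13914 in the second, with 956 above and 995 below. The median of the 9 genes against their flanks was 0.01, beside 0.0004 for all genes. Apc, Gsk3b and Glul lay above their flanks in 4 of 4 tumours and no gene of the 9 lay below in 4 of 4, against 14.9% and 13.8% of all genes.

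Probe by probe, 14 of the 62 lay above their flanks in 4 of 4 tumours and 9 below. The shares over all autosomal probes were 15.3% and 11.8%. At an unadjusted p under 0.05 there were 6 above and 7 below, beside 7.67% and 7.87% of all probes, and none was past the adjusted threshold. With normexp background correction 11 of the 62 were past it, 2 above and 9 below their flanks, beside 13.5% of all probes. Of all 158929 probes, 8632 were past it above and 12780 below, so the calls leaned lower there too. All 62 were unflagged and well above background, and their median GC content, 36.7%, was that of the autosomal probes. Over these 62 probes, the values minus flanks of tumours 2 and 3, which lay on different slides, correlated at r = 0.48, and those of tumours 1 and 4 at r = 0.13. Over all autosomal probes the same pairs gave 0.50 and 0.02. Of the pairs that shared a slide, tumours 1 and 2 gave 0.47 over the 62 probes and 0.12 over all. Tumours 3 and 4 gave 0.37 and 0.29. The points share arrays and probe chemistry, so these are descriptions.

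None of the 62 probe sequences lies in the promoter windows that RefSeq (assembly GRCm38.p6) gives around the start of 6 of the 9 genes. The values therefore do not bear on those windows.

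The wider Wnt pathway was taken as a list of 105 other genes, of ligands, receptors, inhibitors, transducers, nuclear partners and liver targets. The array named 98 of them and 73 had enough probes. None was past the adjusted threshold against its flanks. At an unadjusted p under 0.05, 11 of the 73 lay above and 5 below their flanks, beside 6.87% and 7.15% of all genes. The median was 0.01, and 18 of the 73 lay above their flanks in 4 of 4 tumours and 8 below, beside 14.9% and 13.8% of all genes.

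By role, 3 of 17 ligands, 0 of 13 receptors, 1 of 6 secreted inhibitors, 3 of 21 transducers, 3 of 9 nuclear partners and 1 of 7 liver targets lay above at an unadjusted p under 0.05, beside 6.87% of all genes. Below their flanks there were 1 ligand, 1 receptor, 2 transducers and 1 nuclear partner, and no secreted inhibitor or liver target, beside 7.15% of all genes. The lowest means were those of Fzd5, a Wnt receptor (-0.23 ± 0.24), Chd8, a chromatin remodeller that binds beta-catenin (-0.19 ± 0.14), and Wnt3a, a ligand (-0.17 ± 0.26). The highest were those of Pygo2, a nuclear co-activator (0.23 ± 0.22), Rnf146, a ubiquitin ligase that degrades Axin (0.18 ± 0.16), and Porcn, which acylates Wnt ligands (0.17 ± 0.18; all SD, n = 4). Porcn lies on X, where tumours 1 and 4 went against their labels. Tumour 2, the noisiest array, gave the most extreme value for each of these 6 genes.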

How the data were processed

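Genomic DNA of 4 liver tumours was hybridized against pooled reference DNA on 2-colour arrays. The deposited files hold Agilent Feature Extraction output (version 12.0.1.1 per the file headers, 12.0.0 per the submitters' processing notes), with probe positions on mm9. Per the file headers, background was subtracted from the deposited intensities, which were then dye-normalized. The deposited log10 ratio was used only to check the direction. Each array had 174317 spots that were not controls, and at least 98.9% in the reference channel were well above background.

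From these intensities, log2 of red over green was computed, flagged spots were left out, and each array was centred on its autosomal median, with no loess or quantile step. Gene values are means over the probes of a gene on its chromosome, with at least 2 probes. Flanks are all other probes within 1 Mb, with the probes of the same named gene left out, for single probes as well as for genes. Values against 0 and against flanks were fitted with limma 3.58.1 (lmFit and eBayes, R 4.3.3) over all genes or probes, with Benjamini-Hochberg adjustment. The chromosome 9 differences had exact sign-flip tests. Segments came from penalised least squares, with a penalty factor of 3 and calls at 0.2 and at least 5 probes, in Python 3.11.15. The scripts were tested on simulated data. The members, the Wnt list and the tests were chosen with earlier results of these data known. The named genes are all 9 members, the neighbours of Ctnnb1, and the 3 highest and 3 lowest means of the Wnt list. Samples carry no pairing, since they form 1 group.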

Additional observations from a re-analysis of the deposited data

Results flagged for a closer look

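Of 28 sets of 4 tumour values that were compared, 2 held a tumour whose gap to the nearest of the others exceeded Dixon's critical share of the range for 4 samples. Chance alone gives such a gap in about 1 set in 20. The first Ctnnb1 probe read -0.998 in tumour 2, against -0.43 to -0.46 in the others. The second Ctnnb1 probe read 0.020 in tumour 3, against -0.32 to -0.37 in the others.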

How the results depend on the processing

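The number of arrays, and the noise of tumour 2's array, limit every mean over tumours. Leaving out tumour 2 took Ctnnb1 minus flanks from -0.17 to -0.07, Ctnnb1 minus chromosome 9 from -0.15 to -0.08, Axin1 minus flanks from -0.06 to -0.02 and Axin2 minus flanks from 0.13 to 0.02. No paired analysis was possible because the tumours form a single group. Array weights, the values without the second or the third Ctnnb1 probe, the inverted repeats and the Tcf7l2 and Gsk3b runs were chosen after seeing the data. The causes of the changes below were not tested.

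No gene was called against 0 in the main setting. There were 391 genes called with normexp background correction (180 higher, 211 lower), 721 with segment means, 361 with slide as a random block and 356 with array weights. Genes in the same segment share their segment mean, so the 721 are not separate calls. The slide fit used a negative correlation within slides (-0.31), which lowers the standard error of a mean, so its calls do not show better control of slide. Leaving out a tumour gave 0 in each case. With normexp Ctnnb1 was among those called (-0.37, adjusted p = 0.0488, where 1.52% of genes were called lower), while its adjusted p lay between 0.0524 and 0.923 in the other 17 settings. Against flanks, no gene and no Wnt list gene was called in any of the 19 alternatives. The probe fit called 21412 probes with normexp and 947 with array weights, and between 0 and 72 without a tumour, the 72 being without tumour 2. Normexp called 11 of the 62 probes of the 9 genes (2 higher, 9 lower), including the first Ctnnb1 probe and the sixth and seventh Tcf7l2 probes. Over all probes it called 13.5% (8632 higher, 12780 lower).

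Ctnnb1 minus the rest of chromosome 9 kept its sign in all 18 alternatives, from -0.30 (without the third Ctnnb1 probe) to -0.002 (without the lowest), and its neighbours theirs in all 15, from 0.006 to 0.08. Calls at the 9 genes numbered 1 in the main setting, 2 with normexp, 0 with the intensity trend removed, 4 at a call threshold of 0.1, 0 at 0.3, and 0 to 1 without a tumour.

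Signs turned for these values, none past the adjusted threshold. Segment means gave -0.0062 for Apc, -0.0033 for Gsk3b, -0.0032 for Tcf7l2 and -0.0060 for Lef1 against 0. Turning the sign of array 1 gave 0.010 for Axin1 and -0.061 for Csnk1a1 against 0, and -0.072 for Csnk1a1 and -0.014 for Tcf7l2 against flanks. Csnk1a1 against 0 was -0.074 with normexp, -0.023 with array weights and -0.014 to 0.088 without a tumour. Csnk1a1 minus flanks was -0.12 with normexp, -0.023 with array weights and -0.041 to 0.046 without a tumour. Tcf7l2 minus flanks was -0.0011 with the intensity trend removed, -0.0045 with dim probes left out and -0.0089 to 0.015 without a tumour. Lef1 minus flanks was -0.017 with normexp, -0.0081 with the GC trend removed, -0.0080 with the median over probes, -0.0011 with flanks of 0.5 Mb, -0.017 with array weights and -0.022 to 0.042 without a tumour.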
